A study of Mus musculus with 6 samples.

Results

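The endothelin and angiotensin genes described here are 7 genes chosen by symbol, of 21983 in the deposited count table: the ligand precursors Edn1 and Agt, the processing enzymes Ece1 and Ace, and the receptors Ednra, Ednrb and Agtr1a. All 7 were found and all 7 passed the filter on low counts. Their RNA was measured in whole liver of 6 C57BL/6 mice, each of which had drunk thioacetamide (TAA, a hepatotoxin that scars the liver when given for long) at 400 mg/L for 16 weeks. In 3 mice (numbers 49, 82 and 88, labelled Lrat-Cre; Prmt1f/f and called knockout here) a Cre recombinase under control of Lrat, a gene that marks hepatic stellate cells in liver, was combined with a floxed Prmt1 allele. The other 3 mice (42, 83 and 90, labelled Prmt1f/f and called control here) carried the floxed allele without Cre. An age of 10 weeks is labelled without saying when in the 16 weeks of TAA it was counted. No mouse without TAA was analysed here, so what TAA does to these genes was not measured. By design the deletion is aimed at cells that express Lrat, while the RNA comes from all liver cells. In which cells Prmt1 was deleted was not measured.

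Endothelin-1 and angiotensin II are short peptides that constrict blood vessels. Endothelin-1 is cut from the product of Edn1 by endothelin-converting enzyme (Ece1) and acts on the receptors ETA (Ednra), which drives contraction of smooth muscle and stellate cells, and ETB (Ednrb), which is abundant on sinusoidal endothelium, clears the peptide and can release nitric oxide. Angiotensin II derives from angiotensinogen (Agt), which hepatocytes secrete, through cuts by renin and by angiotensin-converting enzyme (Ace), and acts mainly on the AT1 receptor (Agtr1a, one of a pair of genes in mice). In scarred liver both peptides are known to make activated stellate cells contract and to raise the resistance to portal blood flow.

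The 250 bases before the annotated start of both ligand precursor genes are shown because Agt had the highest level and the largest genotype difference of the 7 genes and Edn1 the lowest level. They come from RefSeq (GRCm38.p6, the assembly also called mm10), where 6 of 7 symbols matched. The lines run 5′ to 3′ along the gene, for Agt at chr8:124569707-124569956 on the minus strand and for Edn1 at chr13:42301226-42301475 on the plus strand, and capitals mark matches to the motifs searched.
Agt: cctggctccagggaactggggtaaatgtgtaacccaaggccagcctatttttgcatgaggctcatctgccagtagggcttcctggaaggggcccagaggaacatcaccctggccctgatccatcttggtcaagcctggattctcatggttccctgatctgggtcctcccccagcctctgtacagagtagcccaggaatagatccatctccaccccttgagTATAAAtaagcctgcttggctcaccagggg
Edn1: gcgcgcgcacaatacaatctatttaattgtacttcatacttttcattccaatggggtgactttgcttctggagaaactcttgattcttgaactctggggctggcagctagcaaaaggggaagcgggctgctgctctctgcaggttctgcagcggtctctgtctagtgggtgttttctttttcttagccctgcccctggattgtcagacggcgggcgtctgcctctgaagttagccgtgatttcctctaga
On both strands, 5 motifs were searched: TATAAA as the core box of many promoters, GGGCGG as the site of Sp1, TGANTCA as that of AP-1, AGATAA as that of GATA factors and TTGCNNAA as that of C/EBP factors. The stretch of Agt held 1 match, TATAAA on the gene's own strand at bases -30 to -25, and that of Edn1 held none. Of 32851 annotated promoters of this length, 12.4% held TATAAA, 32.7% the Sp1 letters, 6.75% the AP-1, 9.99% the GATA factor and 9.56% the C/EBP letters. In the stretch before the upstream start of Ace (chromosome 11, from 105967698 to 105967947) GGGCGG occurred 4 times, with 2 of the matches overlapping, and TATAAA once on the opposite strand. Ace has a second annotated start further in, known to serve the testis form, and the counts pool all forms. These matches describe letters only.

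Total counts were 14693392 to 15479415 in the knockout and 13303884 to 16462278 in the control livers. Counts differed by more than sampling noise in every pair of libraries. Libraries 82 and 88, both knockout, were the closest pair (chi-square per degree of freedom 16.3), and the next closest were knockout 49 and control 42 (28.4). Prmt1, the gene the genotype targets, had 35.8, 24.7 and 25.8 CPM (counts scaled to a common library size with TMM factors) in knockout mice 49, 82 and 88, against 38.9, 44.4 and 49.8 CPM in control mice 42, 83 and 90. The groups did not overlap (log2 fold change -0.62, SE 0.20, adjusted p = 0.347 in edgeR's quasi-likelihood test). The defining markers of liver cell types were found, Alb of hepatocytes, Lrat of stellate cells, Pecam1 and Stab2 of endothelium and Krt19 of bile ducts all having counts in every mouse. Other marker lists were summed as well: portal fibroblast markers (5 of 7 lower) summed to between 188 and 366 CPM in knockout and 334 and 486 CPM in control livers, and bile duct markers (8 of 9 lower) to between 308 and 780 CPM in knockout and 556 and 1355 CPM in control livers. Macrophage markers (7 of 12 higher) summed to between 708 and 970 CPM in knockout and 525 and 1642 CPM in control livers, and blood markers (4 of 4 higher) to between 37.3 and 192 CPM in knockout and 32.8 and 80.1 CPM in control livers. Of all 13153 genes tested, 6937 were lower and 6216 higher in knockout livers. The part of the marker lists in the results on the 7 genes was not tested.

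Levels per length set the 7 genes far apart. Divided by kilobases of exon, Agt averaged 368 ± 119 CPM per kilobase in knockout and 173 ± 50.9 in control livers (SD, n = 3 each, as for all values in this paragraph). Ece1 followed with 34.5 ± 1.67 in knockout and 25.5 ± 3.80 in control livers, between 5.13 and 12.8 times under Agt within the same mouse. Ednrb (13.8 ± 3.57 in knockout, 12.8 ± 3.63 in control livers) and Agtr1a (15.0 ± 0.756 in knockout, 11.5 ± 1.03 in control livers) came next, and their order was not fixed: Ednrb was the higher in 3 of 6 mice. Ace (2.37 ± 1.28 in knockout, 2.80 ± 1.79 in control livers) and Ednra (1.52 ± 0.401 in knockout, 1.87 ± 0.296 in control livers) did not differ in level beyond their spread, Ace being higher in 4 of 6 mice. Edn1, at 0.892 ± 0.395 in knockout and 1.34 ± 0.709 in control livers, was under Ednra in 6 of 6 mice, by 1.01 to 3.03 times. With the longest transcript as length, the control means of Ednra (2.82) and Agtr1a (14.6) were higher and that of Agtr1a lay above that of Ednrb (13.3). For endothelin the processing enzyme and the ETB receptor had more RNA per length than the precursor, while for angiotensin the precursor had the most of the 7.

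**Figure D1:**
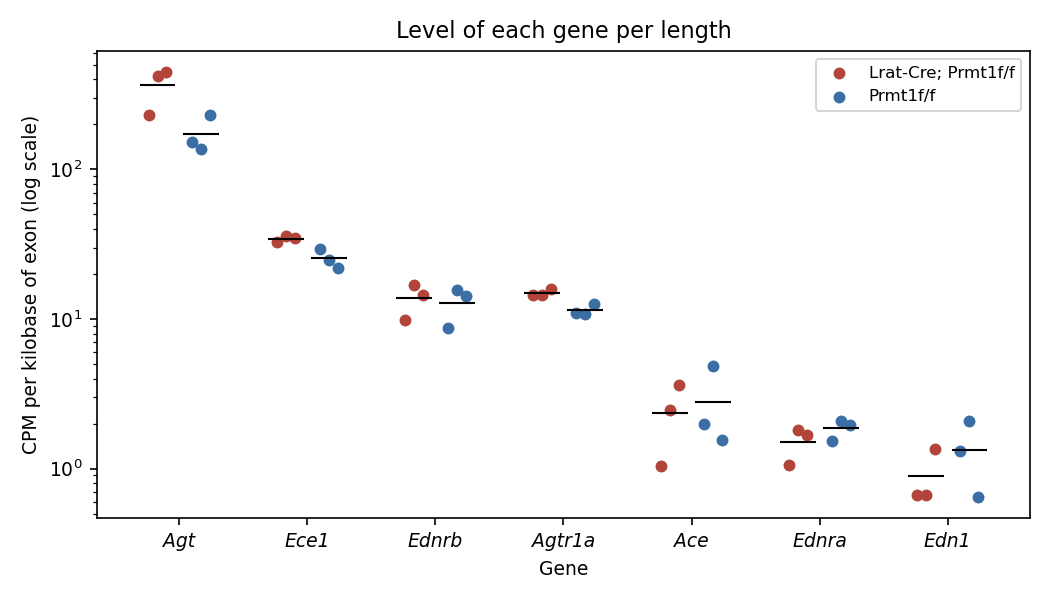
Level of each of the 7 genes in CPM per kilobase of exon (log scale), 1 point per mouse, with knockout livers (red) left of control livers (blue) and a line at each mean. Agt lies above every other gene in all 6 mice, and Edn1 has the lowest means, 0.892 in knockout and 1.34 in control livers.

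Between genotypes, the means of Agt, Ece1 and Agtr1a were higher in knockout livers, with 95% intervals of the log2 fold change above 0 but no call after adjustment in edgeR. The knockout and control livers were separate in Ece1 and Agtr1a and overlapped in Agt. They also overlapped in the other 4 genes, whose intervals include 0. After adjustment 0 of the 7 were past 0.05 in edgeR, as were 0 of all 13153 genes tested (0%), while 1448 genes (11.0%) had an unadjusted p under 0.05. DESeq2 called 238 genes (1.81%), 115 higher (0.875%) and 123 lower (0.936%), with Agt among the higher, and limma-voom called 0. At an unadjusted p under 0.05, 3 of the 7 genes were higher in knockout livers (5.06% of all genes were) and 0 were lower (5.95% of all genes were). In 2 of the 7 every knockout liver lay above every control liver (8.94% of all genes), and in 0 every one lay below (7.95% of all genes). The median log2 fold change was 0.11 over the 7 genes and -0.02 over all genes tested. When knockout mouse 49, 82 or 88 or control mouse 83 was left out, when libraries were scaled by total counts alone and when low counts were not filtered, 1 of the 7 (Agt) had an unadjusted p under 0.05.

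**Figure D2:**
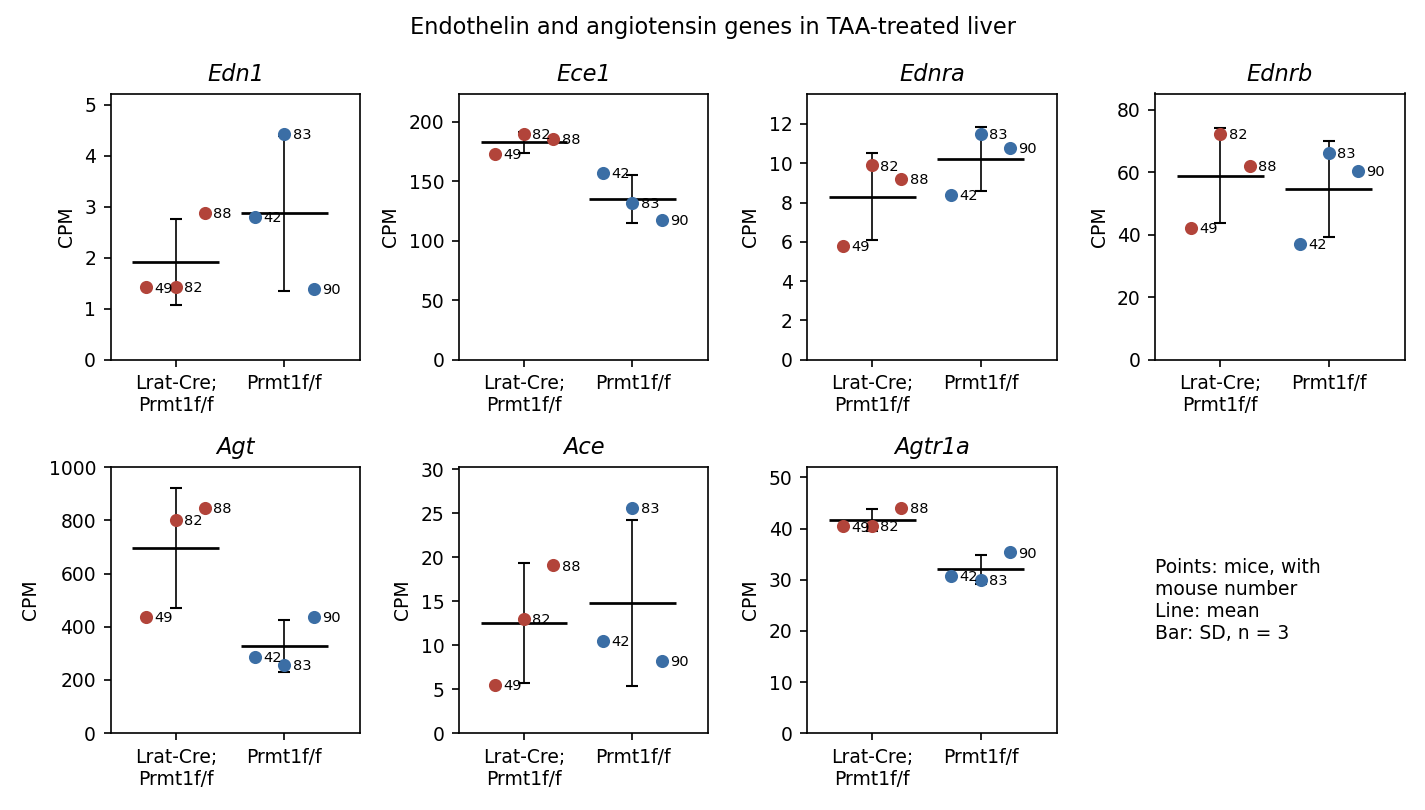
CPM of each gene (linear axes from 0) in the 3 knockout livers (red, left) and the 3 control livers (blue, right), with mouse numbers, the mean and the SD. The groups are separate in Ece1 and Agtr1a and touch in Agt, where knockout mouse 49 (436 CPM) lies beside control mouse 90 (438 CPM).

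Agt, the precursor of all angiotensin peptides (chromosome 8, 124556534 to 124569706, minus strand, GENCODE M21 on GRCm38), had 436, 801 and 848 CPM in knockout mice 49, 82 and 88, against 287, 258 and 438 CPM in control mice 42, 83 and 90. Knockout mice 82 and 88 stood well above every control liver, and mouse 49 lay just under control mouse 90. Scaled by total counts alone the groups did not touch, with 437 CPM in knockout mouse 49 as the lowest knockout liver and 402 CPM in control mouse 90 as the highest control liver. The mean was 695 ± 226 CPM in knockout and 328 ± 96.3 CPM in control livers (SD, n = 3 each), a fitted fold of 2.12 (log2 fold change 1.09, SE 0.32, 95% interval 0.35 to 1.82). In edgeR its p was 0.00881 and its adjusted p 0.323, rank 358 of 13153 genes by p. DESeq2 gave an adjusted p of 0.0437 and limma-voom 0.344, and limma-voom with a weight per library gave 0.027. The two-sided exact permutation test gave p = 0.2, where 0.1 is the smallest that 3 mice against 3 can reach. The 14 hepatocyte markers summed to between 105122 and 127526 CPM in knockout and between 85419 and 132447 CPM in control livers. Of these markers 10 were higher and 4 lower in knockout livers (median log2 fold change 0.38). At an unadjusted p under 0.05 in edgeR, 4 were higher (5.06% of all genes were) and 0 lower (5.95% of all genes were). In 5 every knockout liver lay above every control liver (8.94% of all genes), and in 0 every one lay below (7.95% of all genes). Alb, which encodes albumin, had a log2 fold change of 0.10 (SE 0.36, adjusted p = 0.932, edgeR). The part of hepatocyte markers in the Agt difference was not tested. In bulk RNA, fewer cells of a type and less RNA per cell cannot be told apart.

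Edn1, the endothelin-1 precursor (chromosome 13, 42301476 to 42307990, plus strand), was counted 22, 19 and 40 times in knockout mice 49, 82 and 88, against 42, 87 and 17 times in control mice 42, 83 and 90. These are 1.42, 1.42 and 2.88 CPM in knockout livers, against 2.80, 4.42 and 1.39 CPM in control livers. The lowest and the highest of the 6 were control livers, so the knockout range lay within the control range. Counting alone leaves wide limits here: 17 counts have an exact 95% Poisson interval of 9.90 to 27.2, and 87 counts one of 69.7 to 107, both for unscaled counts and for counting error only. The fitted log2 difference was -0.61 (SE 0.50, 95% interval -1.75 to 0.54, adjusted p = 0.664, edgeR). It was -0.15 without control mouse 83, -0.97 without control mouse 90 and -1.07 without knockout mouse 88.

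Ece1, a membrane metalloprotease that turns big endothelin-1 into the active peptide (chromosome 4, 137862237 to 137965229, plus strand), had 173, 190 and 186 CPM in knockout mice 49, 82 and 88, against 157, 132 and 117 CPM in control mice 42, 83 and 90. Every knockout liver lay above every control liver, and the knockout livers were close to each other. The means were 183 ± 8.84 CPM in knockout and 135 ± 20.1 CPM in control livers (SD, n = 3 each). Its log2 fold change of 0.43 (SE 0.19, 95% interval 0.01 to 0.86) had an unadjusted p of 0.0461 and an adjusted p of 0.448 in edgeR. The exact permutation p was 0.1, the smallest possible. With total counts as the only scaling the fold change was 0.27 on the log2 scale and its unadjusted p was above 0.05 in edgeR. The groups were still apart, at 172 to 175 CPM in knockout and 108 to 165 CPM in control livers.

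Ace, the protease that makes angiotensin II from angiotensin I (chromosome 11, 105967945 to 105989964, plus strand), varied more within genotypes than between them. It had 5.54, 13.0 and 19.1 CPM in knockout mice 49, 82 and 88, against 10.5, 25.7 and 8.26 CPM in control mice 42, 83 and 90. The lowest value was that of a knockout and the highest that of a control liver, with all others between. The fitted log2 difference was -0.25 (SE 0.51, 95% interval -1.42 to 0.92, adjusted p = 0.868, edgeR), and it turned to 0.42 without control mouse 83 and to 0.11 without knockout mouse 49. An annotated gene on the other strand, Gm11651, overlaps 295 bases of the 5287 exonic bases of Ace, and the strand setting of the counting is not given in the sources used here.

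Agtr1a, the AT1 receptor (chromosome 13, 30336441 to 30382867, plus strand), had 40.4, 40.5 and 44.1 CPM in knockout mice 49, 82 and 88, against 30.8, 30.0 and 35.3 CPM in control mice 42, 83 and 90. Each knockout liver was above each control liver, and the values within each group lay close together. Means were 41.7 ± 2.11 CPM in knockout and 32.1 ± 2.86 CPM in control livers (SD, n = 3 each), with a log2 fold change of 0.38 (SE 0.16, 95% interval 0.02 to 0.74). Its unadjusted p was 0.0402 and its adjusted p 0.437 in edgeR, and the exact permutation p was 0.1. Scaled by total counts alone the log2 fold change was 0.24, with an unadjusted p above 0.05 in edgeR and with 36.8 CPM in the lowest knockout and 35.9 CPM in the highest control liver. Its near-identical copy Agtr1b had 2 counts in knockout mouse 49 and 0 in the other 5 mice, and how reads shared by both copies were counted is not known.

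Ednra, the ETA receptor (chromosome 8, 77663031 to 77724464, minus strand), had 5.79, 9.89 and 9.22 CPM in knockout mice 49, 82 and 88, against 8.40, 11.5 and 10.8 CPM in control mice 42, 83 and 90. Knockout mouse 49 was the lowest of all, and the other knockout livers lay between control mouse 42 and control mouse 90. The fitted log2 difference was -0.30 (SE 0.27, 95% interval -0.92 to 0.31, adjusted p = 0.688, edgeR), and -0.10 without knockout mouse 49. The 16 stellate cell markers, of which 15 were lower in knockout livers (median log2 fold change -0.55), summed to between 406 and 858 CPM in knockout livers and between 865 and 1114 CPM in control livers. Of all 13153 genes tested, 6937 were lower. At an unadjusted p under 0.05 in edgeR, 4 of these markers were lower (5.95% of all genes were) and 0 higher (5.06% of all genes were). In 5 every knockout liver lay under every control liver (7.95% of all genes), and in 0 every one lay above (8.94% of all genes). Lrat itself had a log2 fold change of -1.07 (SE 0.27, adjusted p = 0.297, edgeR). Markers of smooth muscle, a cell type that also carries ETA (5 of 6 tested lower, median log2 fold change -0.17), summed to between 31.4 and 63.3 CPM in knockout livers and between 47.1 and 58.0 CPM in control livers. Their part in the level of Ednra was not tested.

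Ednrb, the ETB receptor (chromosome 14, 103814625 to 103844402, minus strand), had 42.3, 72.2 and 62.0 CPM in knockout mice 49, 82 and 88, against 37.1, 66.3 and 60.5 CPM in control mice 42, 83 and 90. The groups ran side by side, with 1 low mouse in each, knockout 49 and control 42, the pair whose libraries were close over all genes. The fitted log2 difference was 0.11 (SE 0.27, 95% interval -0.51 to 0.72, adjusted p = 0.899, edgeR). It was -0.09 without knockout mouse 82, -0.11 without control mouse 42 and -0.064 with total counts as the only scaling, so no direction was measured. The 16 endothelial markers summed to between 624 and 834 CPM in knockout livers and between 652 and 848 CPM in control livers (6 higher and 10 lower, median log2 fold change -0.06).

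**Figure D3:**
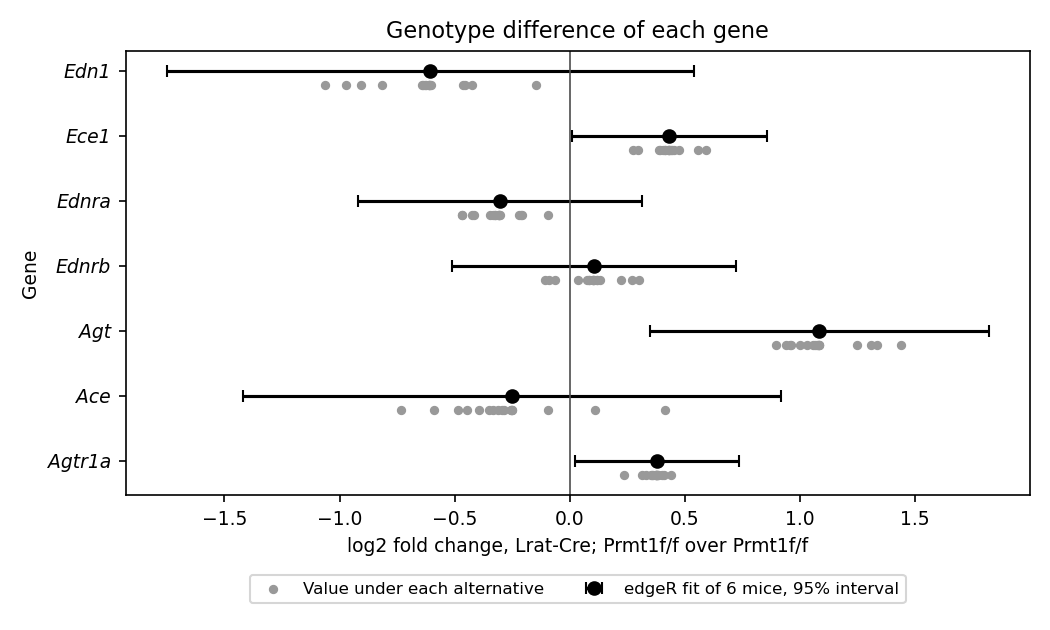
Log2 fold change of knockout over control livers for each gene with its 95% interval from the edgeR fit of 6 mice (black), and the value under each of 17 alternatives (grey). The intervals of Agt (0.35 to 1.82), Ece1 and Agtr1a lie above 0, and the grey points of Ednrb and Ace fall on both sides of 0.

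Within a library, the ratio of counts of 2 genes does not depend on how the library is scaled, and 4 such ratios were computed, chosen after the values were seen. Ednrb had 7.30, 7.30 and 6.72 counts for each count of Ednra in knockout mice 49, 82 and 88, against 4.41, 5.77 and 5.61 in control mice 42, 83 and 90. The groups did not overlap, with means of 7.11 ± 0.336 in knockout and 5.26 ± 0.742 in control livers (SD, n = 3 each). The exact permutation p was 0.1, the smallest possible, and 0.2 when adjusted over the 4 ratios. Neither p accounts for the choice of these ratios after the values were seen. How often the ratios of other gene pairs separate was not computed. The counts of Agt for each count of Ace were 78.7, 61.8 and 44.4 in knockout livers and 27.4, 10.1 and 53.0 in control livers, and these groups overlapped, as did the ratios of Agt to Agtr1a and of Ece1 to Edn1 (exact permutation p = 0.2 for all 3).

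Over the 6 livers the 7 genes followed different patterns. Edn1 and Ace both peaked in control mouse 83, at 0.99 and 1.08 above their own mean log2 CPM, and both were low in knockout mouse 49 and control mouse 90. They went apart in knockout mouse 82, with Edn1 at -0.56 and Ace at 0.10. Ednra and Ednrb shared low values in knockout mouse 49 (-0.63 and -0.38) and control mouse 42 (-0.11 and -0.57). Agt was highest in knockout mice 82 and 88 (0.80 and 0.88 above its mean) and lowest in control mouse 83 (-0.84), the liver where Edn1 and Ace were highest. Ece1 ran from -0.42 to 0.28 around its mean and Agtr1a from -0.28 to 0.27.

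**Figure D4:**
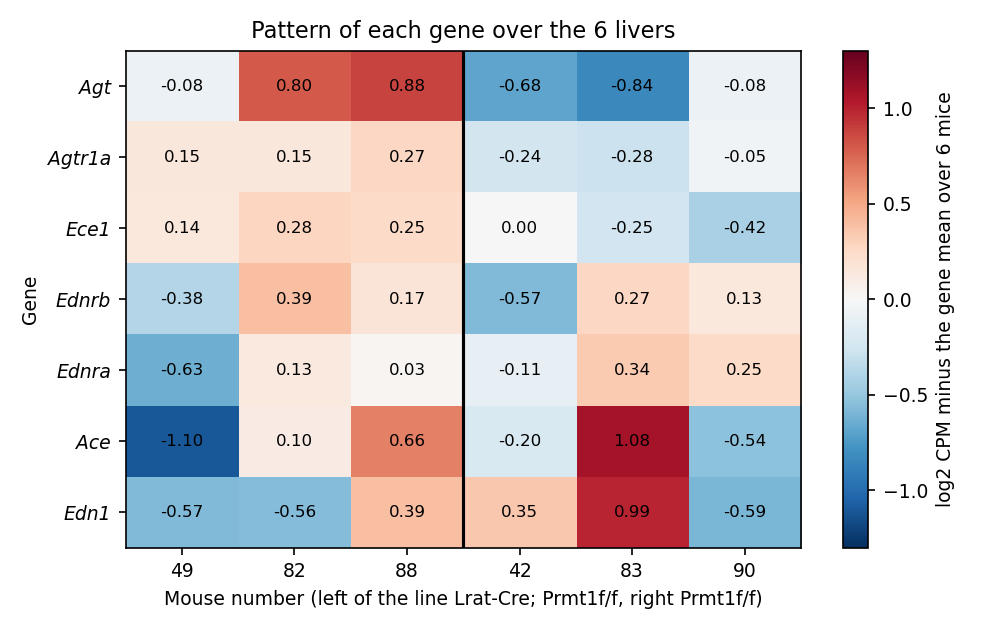
Log2 CPM of each gene minus its mean over the 6 livers, with the knockout mice left of the line and the control mice right of it. Agt, Agtr1a and Ece1 are redder on the knockout side, while Ace and Edn1 reach their highest values, 1.08 and 0.99, in control mouse 83.

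The genes most like each of the 7 were taken as those with the smallest root mean square difference in centred log2 CPM over the 6 mice. All genes tested were ranked except those with placeholder names (such as Gm or Rik symbols). Nearest to Agt were Hrg (0.10 on the log2 scale), which encodes the plasma protein histidine-rich glycoprotein, and Sult1d1 (0.10), a sulfotransferase. Hrg had 496, 979 and 1143 CPM in knockout mice 49, 82 and 88, against 392, 323 and 516 CPM in control mice 42, 83 and 90. Agtr1a was nearest to Ublcp1 (0.02), a ubiquitin-like domain phosphatase, and Ankzf1 (0.04), and Ece1 to the acetyltransferase gene Kat2b (0.04) and the proprotein convertase gene Pcsk4 (0.04). The neighbours of Ednra were the adhesion gene Jam3 (0.06) and Dse (0.08), an epimerase of dermatan sulfate synthesis. Those of Ednrb were Slc9a9 (0.10) and Tmem184a (0.11). Ace was nearest to Mgat3 (0.08) and Ntrk3 (0.11), and Edn1 to Pdzrn3 (0.08) and Ache (0.13), which encodes acetylcholinesterase. With so many genes and 6 points close neighbours arise for any pattern, and these distances are descriptions.

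Several other members of both systems had few or no counts. Edn2 had 0 counts in all 6 mice, which allows up to 0.152 to 0.245 CPM (3 counts of the scaled library size), as did Agtr2, the AT2 receptor. Edn3 had 2 counts in the knockout and 1 in the control livers together. Ren1, which encodes renin, the kidney enzyme that opens the cascade, had 4 counts in the knockout and 5 in the control livers. Mas1, the receptor of angiotensin-(1-7), had 2 counts in the knockout and 13 in the control livers, 9 of them in control mouse 83. Other receptors were well counted, here chosen after their values were seen: Atp6ap2, the (pro)renin receptor, had 699 to 885 counts in knockout and 795 to 1093 in control livers. Lnpep, an aminopeptidase also known as the angiotensin IV receptor, had 1007 to 1165 counts in knockout and 608 to 1629 in control livers, and neither had separate groups.

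Most of the enzymes around the peptides had overlapping groups. Of 9 further endothelin genes 2 could be tested, the peptidases Mme (log2 fold change 0.19) and Ctsa (-0.14), and neither had an unadjusted p under 0.05. Of 22 further angiotensin symbols 20 were in the table and 13 were tested, 0 of them past an adjusted p of 0.05. At an unadjusted p under 0.05, 1 was lower (5.95% of all genes were) and 0 were higher (5.06% of all genes), and the median log2 fold change was -0.01. The gene at an unadjusted p under 0.05 was Prcp, a carboxypeptidase that shortens angiotensin II, with 20.2, 19.4 and 16.6 CPM in knockout mice 49, 82 and 88, against 19.5, 31.3 and 31.2 CPM in control mice 42, 83 and 90 (log2 fold change -0.55, SE 0.22, adjusted p = 0.43, edgeR). Enpep, the aminopeptidase that turns angiotensin II into angiotensin III, had 110, 118 and 127 CPM in knockout livers, against 131, 57.5 and 61.8 CPM in control mice 42, 83 and 90 (0.50, SE 0.31). The high control value was that of mouse 42. In 2 of the 13, Ctsd and Thop1, every knockout liver lay under every control liver (7.95% of all genes). Ctsd, a lysosomal protease, had 298, 310 and 312 CPM in knockout mice 49, 82 and 88, against 340, 417 and 567 CPM in control mice 42, 83 and 90. The fitted log2 difference was -0.53 (SE 0.24, adjusted p = 0.456, edgeR), and 34.4% of its exonic bases are shared with the annotated gene Gm49369. Thop1, an oligopeptidase chosen after its value was seen, was at -0.22 (SE 0.16, adjusted p = 0.621, edgeR).

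Downstream of the receptors, 24 genes of receptor coupling were tested. Of these 3 were higher (5.06% of all genes were) and 2 lower (5.95% of all genes) in knockout livers with an unadjusted p below 0.05, 0 of them past an adjusted p of 0.05 in edgeR, and the list's median log2 fold change was 0.02. Plcb1, one of the phospholipases that Gq-coupled receptors switch on, had 17.3, 19.3 and 28.7 CPM in knockout mice 49, 82 and 88. In control mice 42, 83 and 90 it had 12.9, 14.8 and 12.3 CPM. All knockout livers were above all control livers (log2 fold change 0.71, SE 0.23, adjusted p = 0.351, edgeR). The related phospholipase genes Plcb2 (-0.65, SE 0.44), Plcb3 (0.07, SE 0.19) and Plcb4 (0.18, SE 0.31) all had overlapping groups. Itpr1, one of the calcium channels that open after these phospholipases act, was at 0.84 (SE 0.32, adjusted p = 0.404, edgeR). Its groups overlapped, with knockout mouse 49 (75.7 CPM) under control mouse 42 (77.0 CPM). Gna12, chosen here after its value was seen, was at 0.46 (SE 0.20). The 2 lower genes encode inhibitors of G protein signalling. Rgs5, a gene of pericytes and stellate cells, had 39.7 ± 8.59 CPM in knockout and 73.3 ± 12.9 CPM in control livers (SD, n = 3 each). Its log2 fold change was -0.88 (SE 0.22, adjusted p = 0.285 in edgeR and 0.0327 in DESeq2). Rgs2, also chosen after its value was seen, was at -1.15 (SE 0.47) and had overlapping groups, with control mouse 42 among the knockout livers. Scaled by total counts alone, or without knockout mouse 88 or control mouse 90, 0 of the list were higher, and without control mouse 42 there were 5 higher and 5 lower.

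Contractile genes, which act downstream of both peptides in smooth muscle and stellate cells, held 16 tested genes. In edgeR 5 had an unadjusted p below 0.05, all of them lower (5.95% of all genes were), 0 passed after adjustment, and the median log2 fold change was -0.17. The 5 were Tagln (-1.04), Acta2 (-1.29), Tpm1 (-0.70), Tpm2 (-1.41) and Myl9 (-0.78). In 5 of the 16 tested genes all knockout livers lay under all control livers (7.95% of all genes). These were the same 5, so this count is not separate evidence from the count by p. DESeq2 called 3 of the 16, Tagln, Acta2 and Tpm1, all lower (0.936% of all genes were called lower). Tpm1, a tropomyosin of actin filaments, had 96.1, 74.4 and 70.8 CPM in knockout mice 49, 82 and 88, against 122, 138 and 133 CPM in control mice 42, 83 and 90. Genes on the other strand overlap 67.9% of the exonic bases of Tagln. Tagln and Acta2 are also markers of activated stellate cells, a list whose 11 tested genes were all lower in knockout livers (median log2 fold change -1.29). Of all 13153 genes tested, 6937 were lower. At an unadjusted p under 0.05 in edgeR, 9 of the 11 were lower (5.95% of all genes were). In 9 every knockout liver lay under every control liver (7.95% of all genes). The markers of these cells summed to between 495 and 1051 CPM in knockout livers and between 1595 and 2129 CPM in control livers, the gene Cthrc1 being at 0. The part of these cells in the contractile genes was not tested. Smooth muscle myosin, Myh11, was not among them (-0.16, SE 0.39, adjusted p = 0.893, edgeR), nor were the kinase genes Rock1 (0.06) and Rock2 (0.17). Without control mouse 90 the count was 3.

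The list of vasodilator signalling, which opposes both peptides, held 19 tested genes, with a median log2 fold change of -0.22. With an unadjusted p below 0.05 in edgeR, 2 were higher (5.06% of all genes) and 4 lower (5.95% of all genes), and 0 passed after adjustment. The list holds genes that limit this signalling, such as Pde5a, beside genes that carry it. Its median and counts therefore give no direction of signalling. That median was 0.06 without knockout mouse 49 and 0.01 without control mouse 83. Vipr1, the receptor of vasoactive intestinal peptide and itself one of the stellate cell markers, had 14.1, 16.9 and 17.2 CPM in knockout mice 49, 82 and 88, against 30.0, 26.4 and 29.4 CPM in control mice 42, 83 and 90. No knockout liver came near a control liver (log2 fold change -0.83, SE 0.17, adjusted p = 0.227 in edgeR and 0.00813 in DESeq2). Klf4, a transcription factor gene, was at -1.63 (SE 0.36, adjusted p = 0.256 in edgeR and 0.00701 in DESeq2), and Pde5a, the enzyme that breaks down cyclic GMP, at -1.14 (SE 0.33). Npr2 (0.46), a natriuretic peptide receptor, and Ptgir (1.44), the prostacyclin receptor with 1.88 ± 0.639 CPM in knockout and 0.678 ± 0.426 CPM in control livers (SD, n = 3 each), were the higher genes, and Ramp1 (-0.94) was the remaining lower one, these 3 being chosen after their values were seen. Nos3, the endothelial nitric oxide synthase, was at -0.22 (SE 0.31, adjusted p = 0.801, edgeR). Nos2, the inducible synthase, did not pass the filter on low counts and was not tested. It had 2, 0 and 2 counts in knockout mice 49, 82 and 88, against 9, 34 and 32 counts in control mice 42, 83 and 90, so that the groups were separate, and it too was chosen after its values were seen. When knockout mouse 82 or 88 or control mouse 90 was left out, or scaling was by total counts alone, 0 genes of this list were higher.

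**Figure D5:**
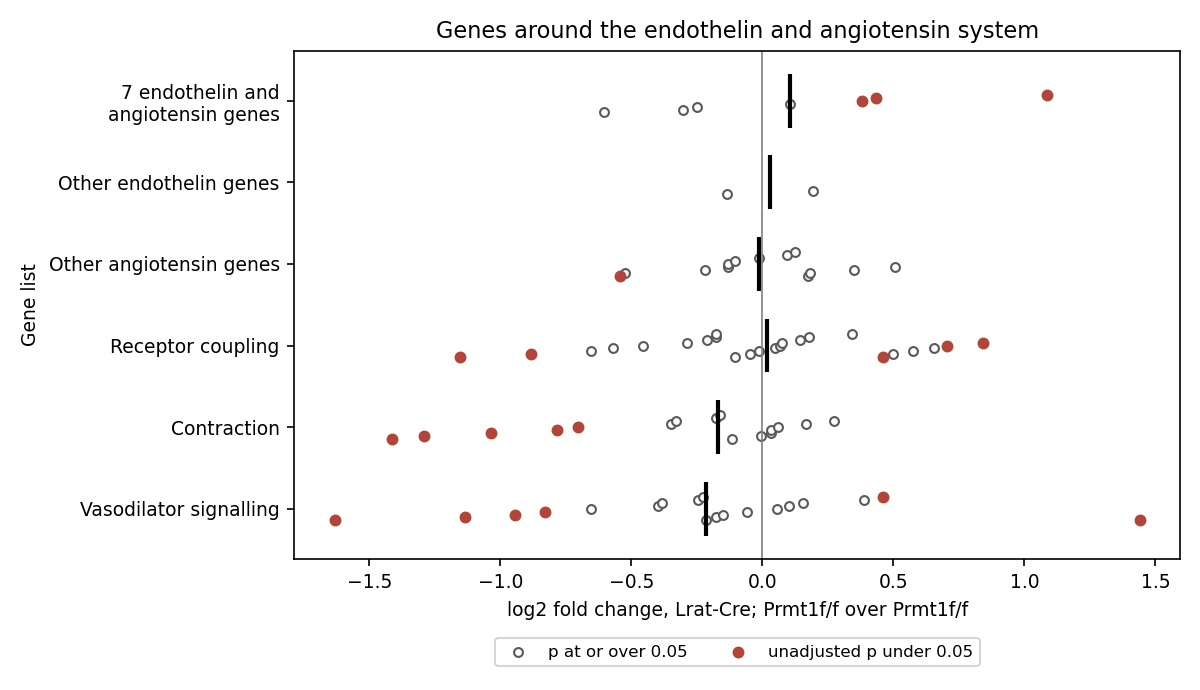
Log2 fold change of knockout over control livers for each tested gene, by list, with a bar at the list's median and filled points for an unadjusted p under 0.05 in edgeR. The 3 filled points of the 7 genes lie right of 0, and the 5 filled points of the contraction list lie left of it.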

How the data were processed

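Total RNA of whole liver from 6 mice was sequenced. TRIzol served for extraction and a NEBNext Ultra RNA kit for the libraries, per the labels' protocols. The authors deposited raw counts per gene symbol in 1 table (21983 symbols, 0 repeated, 5067 at 0 in every mouse, 0 columns of other samples). Per the submitters' processing notes, Trimmomatic, FastQC, STAR and HTSeq were run and the build was mm10. Versions, annotation and strand setting: not given in the sources used here.

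Mice were grouped by title, and columns were matched by mouse number. filterByExpr kept 13153 genes, which were normalized with TMM factors. The main test was the quasi-likelihood one of edgeR 4.0.16, run in R 4.3.3 on genotype alone, with Benjamini-Hochberg adjustment over all genes at 0.05. The biological coefficient of variation was 0.268. Standard errors are the absolute fold change (log2) over the root of F, and 95% intervals from the t distribution of the fit. CPM are counts scaled to a common library size (TMM factors 0.909 to 1.20), and centred log2 CPM used a prior count of 2. Exact permutation tests are two-sided over 20 assignments, on log2 CPM for single genes and on the log2 of the count ratio for ratios. Intervals and floors from counts cover counting error only. The test was checked on simulated counts. Gene positions and lengths (union of exons) come from GENCODE M21 on GRCm38, where 21896 symbols matched once.

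The 7 genes and all gene lists were chosen with earlier results of these data known, so no list was tested. Genes were named by rule: the 7, Prmt1, the 3 smallest p of each list, missing pathway members (Ren1, Agtr1b, Agtr2, Edn2, Edn3, Mas1; 1 further gene is not reported here), the 2 nearest patterns per gene and defining markers, with genes of small counts added where said. Rock1, Rock2, Nos3, Plcb2, Plcb3 and Plcb4 were also chosen after their values were seen. Alternatives were RLE factors, total counts only, a floor of 1 CPM in 3 mice or no filter, limma-voom 3.58.1 with and without library weights, DESeq2 1.42.0 and a robust fit. Further ones were the 20 most abundant genes left out, each mouse left out, the 4 mice numbered over 80, and mouse number (over 80 or not) as a term. Added after seeing the data were CPM by total counts per mouse, ratios of counts within a library and counts at an unadjusted p per setting.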

Additional observations from a re-analysis of the deposited data

How the results depend on the processing

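Of 119 values of the 7 genes under 17 alternatives, 112 kept their direction and their side of an adjusted p of 0.05. Agt passed that threshold with DESeq2 (log2 fold change 1.08) and with limma-voom with library weights (1.44), and kept an unadjusted p under 0.05 under all 17. Ednrb turned to -0.064 with total counts only and ranged from -0.11 to 0.30 with a mouse left out, and Ace from -0.73 to 0.42, in 5 reversals in all. Leaving out a mouse gave ranges of 0.90 to 1.33 for Agt, 0.30 to 0.56 for Ece1 and 0.31 to 0.41 for Agtr1a. The cause was not tested.

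The number of genes past an adjusted p of 0.05 was 0 with edgeR, 4 with no filter on low counts, 238 with DESeq2 and 560 with library weights. It was 6 with mouse number (over 80 or not) as a term and 0 to 13 with a mouse left out. At an unadjusted p under 0.05 edgeR gave 666 higher and 782 lower genes, and 288 higher and 1302 lower with total counts only, which moved the median log2 fold change of all genes to -0.17, against -0.02. Ece1 was at 0.27 and Agtr1a at 0.24 under that scaling. With knockout mouse 82, knockout mouse 88, control mouse 42 or control mouse 83 left out, with the 4 mice numbered over 80 and with library weights, the unadjusted counts were, in this order, 775, 997, 2519, 865, 2494 and 2977, against 1448. Per length, the longest transcript moved Ednra and Agtr1a beyond 1 SD. Nearest genes by Pearson correlation differed for all 7. Of the 2 nearest genes, 0 were kept for Ece1, Ednra, Agt and Ace and 1 for Edn1, Ednrb and Agtr1a. No paired analysis was possible because the genotypes share no mouse numbers. Low counts limit Edn1, and 3 mice a group limit every test. The edgeR p-values set the genotype difference against the variation between these mice, estimated with information from all genes tested.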
